A study of Mus musculus with 2 samples.

Results

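The glycolytic enzymes described here are 10 genes for steps between glucose 6-phosphate and lactate, without phosphofructokinase: Gpi1, Aldoa, Aldoc, Tpi1, Gapdh, Pgk1, Pgam1, Eno1, Pkm and Ldha. They were taken by name from the gene rows of the count tables, and all 10 were present among 18366 gene rows. Transcripts were counted as unique molecular identifiers (UMIs) in single cells of mouse gliomas, in 1 group of 2 libraries, here pool 1 and pool 2. Per the labels, the tumours arose in C57BL/6 mice after in utero transfer of the gene for PDGFB, a platelet-derived growth factor chain, into the embryonic telencephalon. They were taken at about 40 days of age, and cells sorted for GFP from 2 tumours were mixed in each pool. No control tissue belonged to this group, and the mouse behind each cell was not told apart.

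Filtering for 500 or more genes and a mitochondrial share of 15% or less left 3506 cells with 33.4 M UMIs in pool 1 and 3278 cells with 40.5 M UMIs in pool 2. Median depth was 7440 and 11272 UMIs, and 4 barcodes occurred in both libraries. Cells fell into 13 clusters formed without the enzyme genes, of which 10 were large enough to be tested. Oligodendrocyte precursor markers such as Pdgfra and Olig1 were summed at 6277 to 12749 UMIs per 1000000 UMIs (CPM) in clusters 0 to 8, in which microglial markers reached at most 19.6 CPM. A microglia-like cluster led by C1qa and C1qb held 43 and 18 cells and was not tested. Cluster 0 was rich in Malat1, a nuclear RNA, and clusters 6 and 8 were led by mitotic and histone genes.

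Glycolysis splits glucose into pyruvate in the cytosol, with a small yield of ATP that needs no oxygen. The genes studied cover the pathway after the first kinase step except for phosphofructokinase. Ldha adds the reduction of pyruvate to lactate, which returns NAD+ to the Gapdh step. Most of them are textbook targets of the hypoxia-inducible factors (HIFs), transcription factors that are stabilised when oxygen is low. Tumour cells are known for high glycolysis even where oxygen is present.

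Together the 10 genes took 95375 UMIs in pool 1 and 123703 UMIs in pool 2, a summed level of 2853 and 3056 CPM. Gapdh, which oxidises glyceraldehyde 3-phosphate, stood first in both pools with 735 and 775 CPM, or 25.8% and 25.4% of the UMIs of the 10 genes. Pkm, pyruvate kinase, followed with 373 and 334 CPM, and its splice forms M1 and M2 were not told apart by gene counts. Gapdh did not overlap with the gene after it in the order, so its place held in both pools. Pkm was second in both, but in pool 2 its counting interval (329 to 340 CPM) overlapped with that of Aldoa (328 to 339 CPM). Below Gapdh and Pkm came Pgam1, the phosphoglycerate mutase, with 321 and 293 CPM, Aldoa, an aldolase, with 270 and 333 CPM, and Eno1, an enolase, with 299 and 258 CPM. Ldha, the A chain of lactate dehydrogenase, had 254 and 260 CPM. Pgam1 and Aldoa, Aldoa and Eno1, and Eno1 and Ldha overlapped between pools, so the order among these 4 was not resolved.

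The lower end of the range held Aldoc, the aldolase typical of astrocytes and Purkinje cells, with 146 and 287 CPM, and Pgk1, phosphoglycerate kinase and the X-linked member, with 196 and 202 CPM. Gpi1, which turns glucose 6-phosphate into fructose 6-phosphate, had 125 and 173 CPM, and Tpi1, which interconverts the triose phosphates, had 132 and 141 CPM. Gpi1 and Tpi1 overlapped, and so did Aldoc with both of its neighbours in the order, Ldha and Pgk1. Aldoc was the least even gene between pools, 1.96 times as high in pool 2 as in pool 1, while the other 9 had ratios of 0.863 to 1.38. The average level of Aldoc was 216 ± 99.2 CPM (SD, n = 2 pools), against 257 ± 3.71 CPM for Ldha. These libraries count 3′ ends, 1 UMI per captured molecule, so CPM values were compared between genes without division by length, as shares of UMIs.

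In the GRCm38 annotation 3 of the genes share chromosome 7, a pair shares chromosome 6, and the others are each on a different chromosome. Gpi1 lies at chr7:34201330-34230336, Aldoa at chr7:126795234-126800751 and Ldha at chr7:46841475-46855627, the first 2 on the minus strand and Ldha on the plus strand. Tpi1 lies at chr6:124810586-124814296 and Gapdh at chr6:125161715-125166467, both on the minus strand. The remaining 5 are on plus strands, with Aldoc at chr11:78322968-78327781, Pgk1 at chrX:106187100-106203699, Pgam1 at chr19:41911923-41918660, Eno1 at chr4:150236721-150248879 and Pkm at chr9:59656368-59679375. The last 300 bases of the Gapdh transcript matched 121 other annotated genes at 95% identity or more over at least 90 bases, 119 of them pseudogenes, so Gapdh counts are uncertain where reads could be divided among copies. Eno1 had 1 such copy, Eno1b, and the other 8 genes had none. A second row named for Aldoa held 3 and 0 UMIs, against 9028 and 13493 UMIs in the row used.

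All 10 enzyme genes differed between clusters (edgeR quasi-likelihood test with Benjamini-Hochberg adjustment, adjusted p 5.09e-14 to 1.82e-08). The same call was made for 72.3% of the 10982 genes tested, so a difference between clusters was common. The summed level of the enzymes spanned 1006 CPM in cluster 0 to 3837 CPM in cluster 1 in pool 1, and 1103 CPM in cluster 0 to 4581 CPM in cluster 1 in pool 2. Aldoc had the widest relative range in both pools, a ratio of 9.84 and 8.12 between its highest and its lowest cluster. The narrowest ranges were those of Gpi1 in pool 1, with a ratio of 2.37, and of Pkm in pool 2, with a ratio of 2.97. Cluster 1 was the highest of the 10 for 8 of the genes in both pools, and cluster 0 the lowest for 8 of them in both pools.

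**Figure D1:**
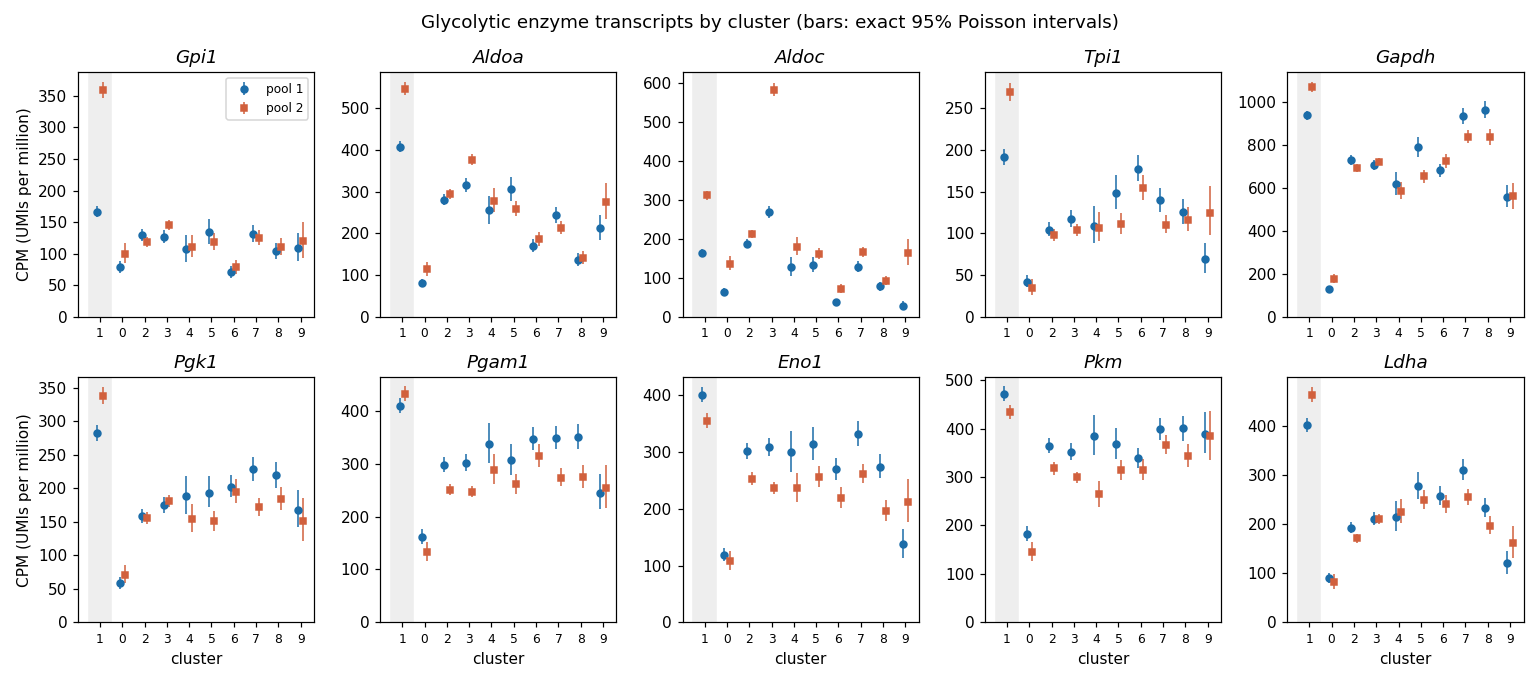
Level of each glycolytic enzyme gene (CPM, linear axes from 0) in the 10 tested clusters, with cluster 1 shaded at the left and 1 point per pool, bars being exact 95% Poisson intervals for counting error only. Gpi1 reached 167 and 359 CPM in cluster 1, and Aldoc was highest in cluster 3 with 268 and 584 CPM.

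Cluster 1 was the cluster with the highest training counts of 14 HIF targets that are not glycolytic, as a mean of both pools (590 CPM, against 331 to 480 CPM in the other tested clusters). Over all counts of pool 1, Fam162a and Ankrd37 of these targets were highest there, at 163 and 9.04 CPM. Vegfa, Bnip3, Adm and Egln3 were not, with Vegfa at 47.0 CPM in cluster 1 and 95.5 CPM in cluster 0. In pool 2 all of these were highest in cluster 1. In held-out counts all 10 enzyme genes were higher in cluster 1 and none was lower. Gpi1, Ldha, Tpi1 and Aldoa rose most, by 1.32, 1.25, 1.22 and 1.20 on the log2 scale. The background in cluster 1 was 18.3% of genes called higher and 11.8% called lower, and the median log2 difference was 0.96 over the 10 genes and 0.01 over all genes tested. Cluster 1 held 626 cells in pool 1 and 515 cells in pool 2. Each comparison set the cluster against the equal-weight mean of the other 9, with the pool as a block, so p-values reflect how far cluster differences varied between the 2 pools and do not extend to other tumours. Without the low cluster 0 in the fit all 10 were still called, with a median of 0.82.

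Gpi1 had 167 and 359 CPM in cluster 1, against 70.4 to 134 CPM in the other tested clusters of pool 1 and 78.9 to 145 CPM in those of pool 2. Cluster 1 was thus above every other tested cluster in both pools, with a log2 difference of 1.32 ± 0.12 (SE, edgeR quasi-likelihood, adjusted p = 3.28e-09). Ldha had 402 and 465 CPM in cluster 1, against 89.9 to 311 CPM and 82.3 to 255 CPM elsewhere, and rose by 1.25 ± 0.09 (SE, log2, adjusted p = 1.83e-11). Tpi1 had 191 and 270 CPM, against 42.0 to 178 CPM and 34.4 to 154 CPM, a log2 difference of 1.22 ± 0.10 (SE, adjusted p = 1.19e-09). For these 3 genes cluster 1 had the highest level in both pools. For Tpi1 in pool 1 its counting interval (182 to 201 CPM) overlapped with that of cluster 6 (163 to 194 CPM).

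Aldoa had 408 and 547 CPM in cluster 1, against 80.01 to 315 CPM in the other clusters of pool 1 and 113 to 377 CPM in those of pool 2 (1.20 ± 0.10, SE, log2, edgeR quasi-likelihood, adjusted p = 4.12e-10). Pgk1 had 283 and 338 CPM in cluster 1, against 58.4 to 229 CPM and 71.3 to 195 CPM (1.04 ± 0.09, SE, adjusted p = 1.19e-09). Cluster 1 was first in both pools for each. Eno1 had 401 and 355 CPM, against 119 to 332 CPM and 108 to 261 CPM (0.76 ± 0.10, SE, adjusted p = 7.73e-07), and Pgam1 had 410 and 432 CPM, against 161 to 351 CPM and 133 to 314 CPM (0.71 ± 0.08, SE, adjusted p = 1.95e-07). Pkm had the smallest difference, with 472 and 433 CPM in cluster 1, against 183 to 400 CPM and 146 to 384 CPM (0.58 ± 0.08, SE, adjusted p = 2.72e-06). The fitted differences of the lower steps from Pgam1 to Pkm were thus smaller than those of Gpi1, Aldoa, Tpi1 and Ldha, which was not tested in a fit. Again cluster 1 had the highest level in both pools. For Pkm in pool 2 its counting interval (420 to 448 CPM) overlapped with that of cluster 9 (335 to 437 CPM).

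For Gapdh in pool 1 and for Aldoc in both pools another cluster was higher than cluster 1. Gapdh had 939 and 1069 CPM in cluster 1, against 129 to 963 CPM and 178 to 839 CPM, and in pool 1 the histone-led cluster 8 was above it (0.82 ± 0.09, SE, log2, edgeR quasi-likelihood, adjusted p = 7.67e-08). The counting intervals for Gapdh in pool 1 overlapped between cluster 1 (917 to 960 CPM) and cluster 8 (924 to 1004 CPM), so their order was not resolved. Aldoc had 164 and 312 CPM in cluster 1, against 27.3 to 268 CPM and 71.8 to 584 CPM (0.88 ± 0.14, SE, adjusted p = 1.89e-05), and it was lower there than in cluster 3 in both pools. Aldoc was also the gene whose call was lost with DESeq2 (adjusted p = 0.0701) and with the pool left out of the model (adjusted p = 0.0544).

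Taken per pool with no test, the log2 differences of cluster 1 were larger in pool 2 than in pool 1 for 8 of the 10 genes, such as 1.67 and 0.68 for Gpi1 and 1.40 and 0.83 for Tpi1. Aldoc (0.81 in pool 2 and 0.90 in pool 1) and Eno1 (0.68 and 0.70) did not follow this. The leading genes of cluster 1 were Hbb-bs, Vgf, Hba-a1 and Hba-a2, the first and the last pair being haemoglobin genes, and the erythroid markers summed to 0.126 CPM in pool 1 and 226 CPM in pool 2. Malat1 was lowest there, at 27750 and 24277 CPM. Of the 3 endothelial markers, Flt1 had 1.13 and 6.29 CPM in cluster 1, against maxima of 0.697 and 3.24 CPM over the remaining tested clusters, Pecam1 had 0.251 and 0.35 CPM, and Cldn5 had 0 and 0.117 CPM. The part of these markers in the result was not tested. With each cell thinned to 2000 UMIs all 10 enzyme genes were called.

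Neighbouring steps were called in cluster 1 too, where 18.3% of all genes tested were called higher and 11.8% lower. Of 10 genes for glucose uptake and the first steps, 5 were higher and none lower, such as Slc2a1, the glucose transporter Glut1 (6.15 and 29.5 CPM in cluster 1, against 3.40 to 12.5 and 2.82 to 13.5 CPM elsewhere). The hexokinase gene Hk2, Slc2a1, Pfkfb3, whose product makes the activator of phosphofructokinase, and the phosphofructokinase gene Pfkl had log2 differences of 1.71 ± 0.35, 1.43 ± 0.30, 1.02 ± 0.33 and 0.82 ± 0.18 (SE, edgeR quasi-likelihood, adjusted p 0.000436 to 0.0192). Slc2a1, Hk2 and Pfkfb3 were highest in cluster 1 in pool 2 but not in pool 1. Of 13 tested genes for lactate and pyruvate handling, 6 were higher and 1 lower. They included Pdk1, a kinase that inhibits pyruvate dehydrogenase (1.07 ± 0.26), Bsg, the chaperone of lactate transporters (0.63 ± 0.08), and Mpc1, a mitochondrial pyruvate carrier subunit (0.39 ± 0.09), while Slc16a7, the lactate and pyruvate transporter Mct2, was lower (-1.05 ± 0.28, all SE, log2). Pdk1 was highest in cluster 9 in both pools, at 15.9 and 35.3 CPM (14 and 21 UMIs), against 9.17 and 15.1 CPM in cluster 1.

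Side branches gave smaller differences in cluster 1. Of 17 genes of the tricarboxylic acid cycle 11 were higher and none lower, led by Mdh2 and Sdhd at 0.58 ± 0.09 and 0.57 ± 0.10 (SE, log2), with a median of 0.36. Of 7 pentose phosphate genes 3 were higher, G6pdx, Pgls and Taldo1, and of 8 genes of the serine and glycerol branches Phgdh and Psph were higher and Shmt1 was lower. The counts of the serine and glycerol branches were near the backgrounds of 18.3% higher and 11.8% lower. The medians of these 2 lists were 0.23 and 0.26 on the log2 scale, against 0.96 for the enzymes. Of the HIF targets outside glycolysis 9 of the 11 tested were higher, such as Ankrd37 at 1.98 ± 0.30 and Bnip3 at 1.80 ± 0.16 (SE, log2), but these genes had chosen the cluster. The 10 core cycling genes were all called lower in this contrast, which includes clusters 6 and 8, and without those clusters the 10 enzyme genes were all called with a median of 1.03.

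**Figure D2:**
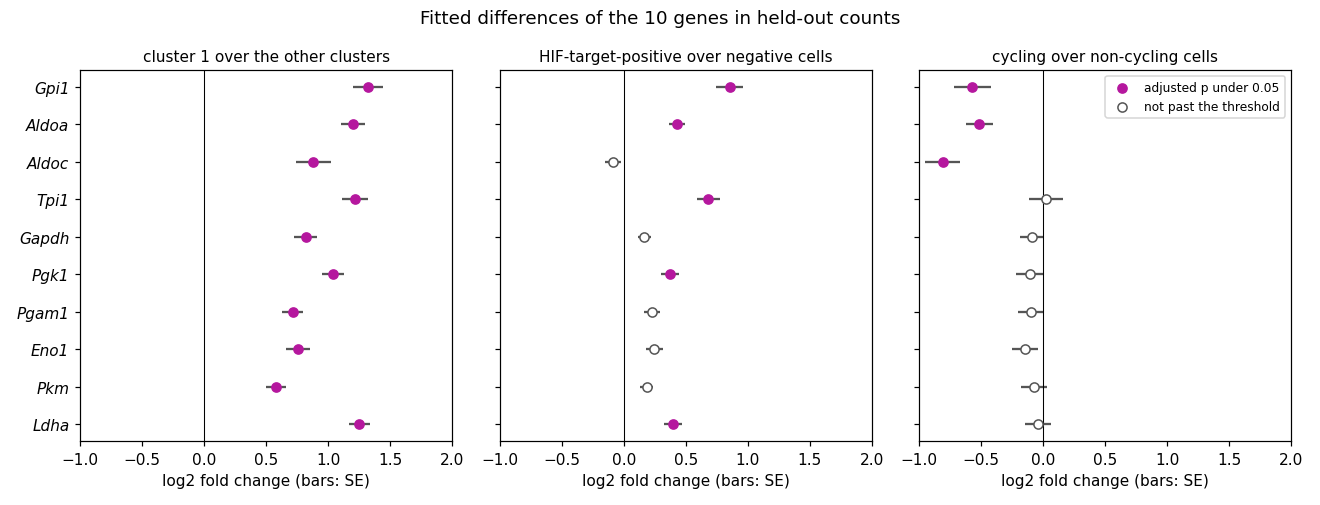
Fitted log2 fold changes of the 10 enzyme genes in held-out counts for cluster 1 over the other tested clusters, for cells positive over cells negative for HIF targets, and for cycling over non-cycling cells, with bars as SE and filled points past an adjusted p of 0.05. Differences reach 1.32 between clusters and 0.86 by HIF target state, and Aldoc lies at -0.09 in the middle panel.

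In cluster 0 all 10 genes were lower and none was higher, against backgrounds of 28.9% of genes called lower and 28.4% called higher. Gapdh fell furthest, to 129 and 178 CPM in cluster 0, against 560.0 to 963 CPM in the other tested clusters of pool 1 and 560.3 to 1069 CPM in those of pool 2, a log2 difference of -2.56 ± 0.13 (SE, edgeR quasi-likelihood, adjusted p = 3.51e-16). Tpi1 followed at -2.19 ± 0.19 (SE), and Gpi1 and Aldoc changed least, at -0.69 ± 0.18 and -0.70 ± 0.20 (SE). Malat1 reached 106100 and 114992 CPM in cluster 0, median depth was 3237 and 2656 UMIs, and the median mitochondrial share was 4.82% and 4.47%. Of the tricarboxylic acid cycle genes 16 of 17 were lower too, so low levels there were shared with other metabolic genes, and the part of nuclear RNA in this was not tested.

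Aldoc set cluster 3 apart. It had 268 and 584 CPM there, against 27.3 to 188 CPM and 71.8 to 312 CPM in the other tested clusters, with no overlap in either pool and a log2 difference of 1.66 ± 0.13 (SE, edgeR quasi-likelihood, adjusted p = 6.95e-10). Aldoa was the only other enzyme gene higher in cluster 3 (0.55 ± 0.10, SE, adjusted p = 0.000384), which gave 2 of 10 against a background of 8.2%, and none was lower (background 4.92%). Cluster 3 was led by Meox1, Mt2 and Cdkn2b, and it held 29 of the 98 and 31 of the 86 doublet-scored cells, the most of any cluster, whose part in these levels was not tested. In cluster 6, led by mitotic genes such as Cenpa and Ccnb1, Aldoc fell to 39.1 and 71.8 CPM (-1.59 ± 0.22, SE, adjusted p = 1.62e-06) and Gpi1 fell to 70.4 and 78.9 CPM (-0.82 ± 0.18, SE, adjusted p = 0.00116), with Aldoa lower as well. There Tpi1, Pgam1, Ldha and Pgk1 were higher, by 0.67 ± 0.13, 0.32 ± 0.09, 0.32 ± 0.11 and 0.31 ± 0.11 (SE, log2), so cluster 6 had 4 enzyme genes higher and 3 lower, against backgrounds of 16.3% and 8.71%.

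The other clusters gave mixed counts. Cluster 8, led by histone genes and Top2a, had Gapdh higher at 0.62 ± 0.10 and Aldoa and Aldoc lower at -0.81 ± 0.14 and -0.63 ± 0.20 (SE, log2; backgrounds 15.8% and 6.05%). Cluster 7, led by replication genes such as Pclaf and Mcm6, had 3 higher and none lower (backgrounds 7.28% and 1.34%), which were Gapdh, Ldha and Eno1. Cluster 2, led by Kcnmb4, Pcp4 and Neu4, had Aldoc higher and Ldha lower (backgrounds 10.7% and 5.65%). Cluster 5, led by the stress and immediate early genes Hspa1a and Fosb, had Ldha higher at 0.37 ± 0.11 (SE) and none lower (backgrounds 3.39% and 1.54%). Cluster 9, led by Enpp6, had Pkm higher and Ldha lower (backgrounds 13.8% and 9.8%). In cluster 4, of low depth (medians 1680 and 1725 UMIs), edgeR called none of the 10 in either direction, with 1 at an unadjusted p under 0.05, and backgrounds of 1.79% higher and 0.492% lower.

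Isoenzyme shares differed between clusters as well. Ldha took 50.5% and 57.5% of the UMIs of Ldha and Ldhb, the heart-type B chain, in cluster 1, against 30.6% to 48.5% in the other tested clusters of pool 1 and 28.4% to 49.5% in those of pool 2. Cluster 1 was thus first in both pools, but its counting interval overlapped with that of cluster 9 (106 and 96 Ldha UMIs). In pool 1 it also overlapped with those of cluster 6, at 48.5%, and cluster 0, at 47.8%. Ldhb itself had 394 and 343 CPM in cluster 1 and rose less than Ldha (0.47 ± 0.09, SE, log2, edgeR quasi-likelihood, adjusted p = 0.00012), although the difference between both genes was not tested in a fit. Aldoc took 28.7% and 36.3% of the UMIs of Aldoc and Aldoa in cluster 1, but 46.0% and 60.8% in cluster 3. In cluster 12, 7 cells in each pool led by the astrocyte genes Gja1 and Aqp4 and too small to be tested, Aldoc reached 1077 and 2191 CPM and 82.0% and 83.6% of the aldolase UMIs. Eno1 took 98.6% and 97.9% of the UMIs of Eno1 and Eno2, the neuronal enolase, over all kept cells.

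**Figure D3:**
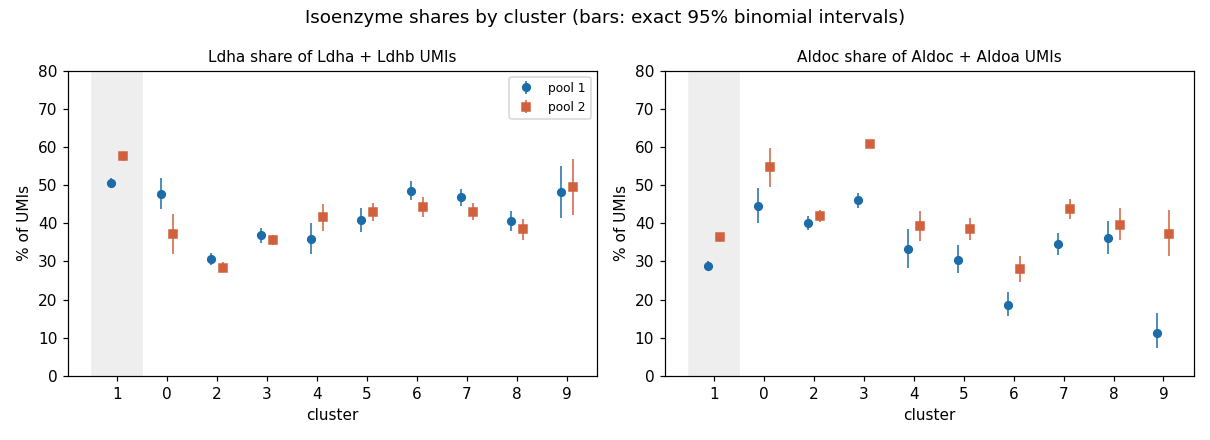
Share of Ldha in the UMIs of Ldha and Ldhb (left) and of Aldoc in those of Aldoc and Aldoa (right), in percent from 0 to 80, in the 10 tested clusters with cluster 1 shaded at the left and 1 point per pool, bars being exact 95% binomial intervals for counting error only. Ldha shares of 50.5% and 57.5% in cluster 1 lie above all others, and Aldoc shares peak in cluster 3 at 46.0% and 60.8%.

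The same question was asked of cells within a cluster. After thinning the training counts of each cell to 2000 UMIs, cells with at least 2 UMIs of the 14 HIF targets were set against cells with 0, within 10 clusters and 2 pools, and the enzymes were read in the held-out counts. Of the 10 genes 5 were higher in HIF-target-positive cells and none was lower, against backgrounds of 0.317% (20 of 6301 genes) higher and 0.0635% lower, so 5 of the 20 genes called higher were enzymes of this list. Gpi1, Tpi1 and Aldoa had the smallest p-values after Vegfa, a gene of the state list itself. Positive cells numbered 457 in pool 1 and 467 in pool 2, against 1088 and 1144 negative cells.

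Gpi1 had 189 and 360 CPM in positive cells, against 115 and 119 CPM in negative cells, and was higher in 17 of 20 pairs of pool and cluster (log2 0.86 ± 0.11, SE, edgeR quasi-likelihood, adjusted p = 3.18e-08). Tpi1 had 190 and 263 CPM, against 122 and 110 CPM, higher in 15 of 20 pairs (0.68 ± 0.09, SE, adjusted p = 5.93e-07). Aldoa had 363 and 500 CPM, against 254 and 298 CPM, higher in 16 of 20 pairs (0.43 ± 0.06, SE, adjusted p = 2.74e-06). These levels are summed over clusters. In fits of a single pool the log2 differences were 1.05 in pool 2 and 0.61 in pool 1 for Gpi1, 0.77 and 0.57 for Tpi1, and 0.43 in both for Aldoa. Ldha had 332 and 403 CPM in positive cells, against 242 and 231 CPM in negative cells (0.40 ± 0.07, SE, adjusted p = 0.000404), and Pgk1 had 254 and 294 CPM, against 190 and 181 CPM (0.37 ± 0.07, SE, adjusted p = 0.00172). Ldha was higher in 15 and Pgk1 in 12 of the 20 pairs, so Pgk1 had the least even spread over pairs of the 5.

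The other 5 did not pass. Eno1 differed by 0.25 ± 0.07, Pgam1 by 0.23 ± 0.07 and Pkm by 0.19 ± 0.05 (SE, log2, edgeR quasi-likelihood, adjusted p = 0.0697, 0.122 and 0.122). Gapdh had 883 and 987 CPM in positive cells, against 751 and 729 CPM in negative cells (0.17 ± 0.05, SE, adjusted p = 0.177). Aldoc stood apart with 157 and 280 CPM in positive cells, against 148 and 284 CPM in negative cells (-0.09 ± 0.06, SE, adjusted p = 0.845). In 17 of 20 pairs the difference of Aldoa was larger than that of Aldoc, so the 2 aldolase genes were unlike in this comparison, although their difference was not tested in a fit.

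Other genes called higher in positive cells were few. Besides Vegfa (2.42 ± 0.16, SE, log2), Ddit4, P4ha1, Fam162a and Kdm3a of the state list, they were Mt2, Mt1, Fos, Vldlr, Appl2, Plod2, Ptprn, S100a10, Mif and Soat1, while Tuba1b, Tmem158, Nasp and Selenoh were lower. These names were chosen after their values were seen. None of 4 tested genes of glucose entry, 7 of lactate and pyruvate handling, 6 of the pentose phosphate pathway, 5 of the serine and glycerol branches, 2 other isoenzymes and 17 of the tricarboxylic acid cycle passed. Depth was near equal, with medians of 11577 and 13858 UMIs in positive cells, against 11180.5 and 13273 UMIs in negative cells, and Malat1 was at 41205 and 39744 CPM, against 40436 and 38726 CPM. The 3 endothelial markers summed to 1.17 and 5.57 CPM in positive cells, against 0.708 and 0.904 CPM in negative cells, and their part in the result was not tested.

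How many genes were called depended on the fit. DESeq2 called 1 of the 10, Aldoa (7 at an unadjusted p under 0.05), and edgeR without the cluster in the block called 0 (2 unadjusted), while limma-voom called 6. Cells thinned to equal depth, a second split of the counts and at least 3 HIF target UMIs gave 8, 8 and 9, and clusters from another rule for variable genes gave 9. Without cluster 1 the count was 3, Gpi1, Tpi1 and Aldoa, with log2 values of 0.44, 0.34 and 0.28. With pool 1 left out 3 were called, and with pool 2 left out 4. The 9 genes other than Aldoc had positive differences in each of the fits run.

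Levels by the number of HIF target UMIs show where the difference lay. The summed enzyme level for 0, 1, 2, 3 and at least 4 HIF target UMIs was 2826, 2981, 3040, 3518 and 6947 CPM in pool 1, and 2791, 2961, 3131, 3601 and 9522 CPM in pool 2. The step was thus small up to 3 UMIs and wide at 4 or more, a bin of 49 cells in pool 1 and 68 cells in pool 2. Gpi1 had 529 and 1246 CPM at 4 or more, against 115 and 119 CPM at 0, Tpi1 had 595 and 870 CPM, against 122 and 110 CPM, and Ldha had 791 and 1050 CPM, against 242 and 231 CPM. Aldoc had 170 and 186 CPM at 4 or more, against 148 and 284 CPM at 0, so its counting intervals overlapped in pool 1 and it was lower in pool 2. Of the cells at 4 or more, 20 in pool 1 and 39 in pool 2 were in cluster 1, where they reached 8673 and 11423 CPM, against 3522 and 3296 CPM in cells of cluster 1 at 0. Outside cluster 1 the summed level was 5488 and 4801 CPM at 4 or more, against 2593 and 2674 CPM at 0, so the step was seen there as well.

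Single cells varied widely within a bin. At 2000 held-out UMIs per cell, the median cell with 4 or more HIF target UMIs held 9 enzyme UMIs in pool 1 and 17.5 in pool 2, against 5 in both pools at 0. At least 15 enzyme UMIs were found in 34.7% and 57.4% of cells at 4 or more (17 of 49 and 39 of 68), against 0.738% and 0.525% at 0. In between, the share was 1.04% and 1.76% at 1 UMI, 2.61% and 2.53% at 2 UMIs and 5.26% and 7.32% at 3 UMIs.

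**Figure D4:**
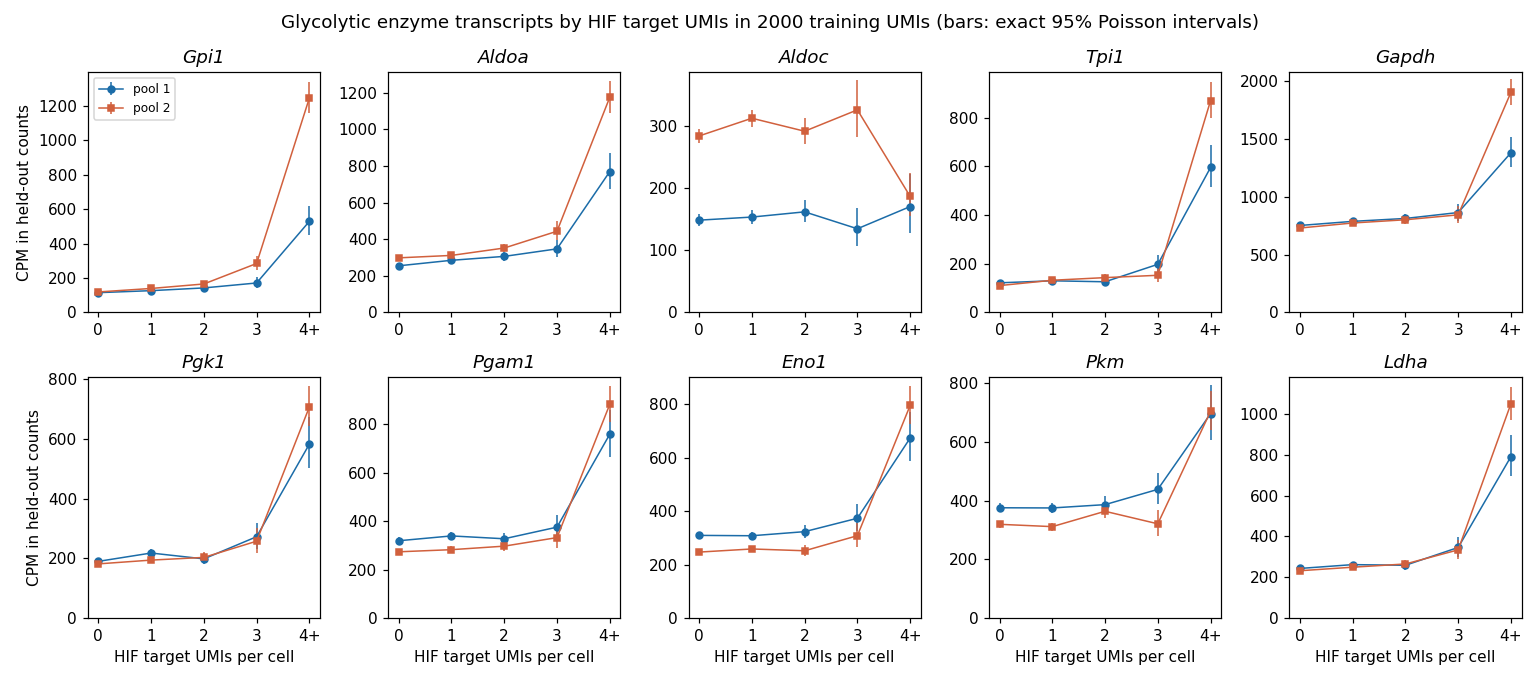
Held-out level of each enzyme gene (CPM, linear axes from 0) by the number of UMIs of 14 HIF targets in 2000 training UMIs per cell, with 1 line per pool, bars being exact 95% Poisson intervals for counting error only. The summed level reaches 6947 and 9522 CPM at 4 or more UMIs, while Aldoc has 170 and 186 CPM there, against 148 and 284 CPM at 0.

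HIF complexes bind short DNA elements, and the 250 bases before the first listed start of each gene (RefSeq, build GRCm38.p6) were searched for ACGTG and GCGTG on both strands. The first listed start need not be the most upstream one. For Ldha, Gapdh and Aldoa the window lies inside the gene range given above, and for Aldoc, Tpi1 and Pkm it overlaps with that range in part. At least 1 match was found for 6 of the 10 enzyme genes (60%), against 53.3% of 13105 promoters of genes in the files, and for 10 of 13 HIF targets (76.9%). At least 2 matches were found for 4 of the 10 (40%), against 25.6%. Both shares of the enzymes rest on 10 promoters. The promoters of Ldha, Pgam1 and Pgk1, and that of Gpi1, which had the largest difference by HIF target state and no match in this window, are shown 5′ to 3′ on the gene's strand, with matches on either strand in capitals. In CACGTG both strands hold ACGTG, so that Ldha has 5 matches in 3 runs, while Pgam1 has 3 and Pgk1 has 2. Gapdh, not shown, also has 2. Tpi1, Aldoa and Pkm, not shown, have no match in this window either. Gpi1, Tpi1 and Aldoa, the enzyme genes with the smallest p-values by HIF target state, therefore all lack a match there. Before other listed starts, Aldoa and Pkm have 1 match per window. Whether matches go with the differences in level was not tested.
Ldha promoter (chr7:46845554-46845803, plus strand): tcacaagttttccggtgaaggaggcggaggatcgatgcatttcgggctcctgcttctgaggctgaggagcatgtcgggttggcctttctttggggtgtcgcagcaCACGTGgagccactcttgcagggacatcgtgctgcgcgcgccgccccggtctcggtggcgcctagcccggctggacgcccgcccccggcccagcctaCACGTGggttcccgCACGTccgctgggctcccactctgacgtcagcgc
Pgam1 promoter (chr19:41911621-41911870, plus strand): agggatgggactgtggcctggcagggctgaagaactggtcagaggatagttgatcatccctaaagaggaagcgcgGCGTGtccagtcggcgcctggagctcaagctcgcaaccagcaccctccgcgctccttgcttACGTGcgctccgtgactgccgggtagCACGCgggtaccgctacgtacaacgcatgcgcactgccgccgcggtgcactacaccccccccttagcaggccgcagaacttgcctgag
Pgk1 promoter (chrX:106186850-106187099, plus strand): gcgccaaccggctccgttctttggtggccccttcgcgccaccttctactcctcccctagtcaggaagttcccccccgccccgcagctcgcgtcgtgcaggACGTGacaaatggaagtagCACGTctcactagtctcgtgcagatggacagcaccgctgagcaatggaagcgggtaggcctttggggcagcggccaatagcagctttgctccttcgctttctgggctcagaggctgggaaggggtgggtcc
Gpi1 promoter (chr7:34230337-34230586, minus strand): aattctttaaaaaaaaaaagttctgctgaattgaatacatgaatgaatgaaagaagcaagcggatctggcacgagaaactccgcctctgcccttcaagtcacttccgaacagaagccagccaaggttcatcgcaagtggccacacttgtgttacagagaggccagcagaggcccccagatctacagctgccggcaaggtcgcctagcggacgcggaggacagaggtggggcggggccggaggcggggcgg
A match is a string of letters and not a measured binding site, and no match in this window says nothing on sites further away or at other starts.

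Cycling cells were compared with non-cycling cells of the same cluster by UMIs of 10 core cycling genes, at least 2 against 0, in clusters 1, 2, 3 and 7. Cycling cells in pools 1 and 2 numbered 49 and 28 in cluster 1 and 85 and 66 in cluster 7. They were only 5 and 8 in cluster 2 and 11 and 6 in cluster 3, so pairs of these clusters rest on few cells. Of the enzyme genes 3 were lower in cycling cells and none was higher, against backgrounds of 0.572% of 7873 genes lower and 1% higher. Aldoc had 96.4 and 173 CPM in cycling cells, against 207 and 373 CPM in non-cycling cells, and was lower in 7 of 8 pairs of pool and cluster (-0.81 ± 0.14, SE, log2, edgeR quasi-likelihood, adjusted p = 2.73e-05). Aldoa had 244 and 236 CPM, against 354 and 412 CPM, and was lower in all 8 pairs (-0.52 ± 0.11, SE, adjusted p = 0.00109). Gpi1 had 136 and 118 CPM, against 161 and 211 CPM, lower in 7 of 8 pairs (-0.57 ± 0.15, SE, adjusted p = 0.0185). These are both aldolase genes and the gene for the isomerase upstream of them, and both pools lay lower in each.

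The other 7 lay between -0.14 ± 0.11 for Eno1 and 0.03 ± 0.14 for Tpi1 (SE, log2) and did not pass, and the median of the 10 was -0.10, against -0.01 over all genes. Gapdh, for instance, had a fitted difference of -0.09 ± 0.10 (SE, log2) and was higher in cycling cells in 3 of 8 pairs, although its levels summed over clusters were 921 and 880 CPM in cycling cells, against 842 and 823 CPM in non-cycling cells. None of the 5 tested genes of glucose entry, 9 of lactate and pyruvate handling, 7 of the pentose phosphate pathway and 17 of the tricarboxylic acid cycle passed in either direction. Over all 10 clusters, doublet-scored cells made up 7.08% and 9.04% of cycling cells, against 3.14% and 2.54% of non-cycling cells, Malat1 was at 32530 and 31726 CPM, against 44288 and 41537 CPM, and oligodendrocyte markers summed to 133 and 139 CPM, against 531 and 343 CPM. Without doublet-scored cells the same 3 genes were called, and the part of the other values in the result was not tested. Cycling cells there were deeper, with medians of 15096.5 and 17895 UMIs, against 10769 and 13124 UMIs, and with cells thinned to equal depth Aldoc alone was called (3 of the 10 at an unadjusted p under 0.05). DESeq2 called 2 of the 10 and limma-voom 1, and 2 were called with pool 1 left out and 1 with pool 2 left out. Gpi1 was the least stable of the 3: its log2 difference was -0.30 ± 0.21 (SE, edgeR quasi-likelihood, adjusted p = 0.721) with pool 2 left out, and its call was also lost with DESeq2, limma-voom, no block, 3 or more UMIs, thinning, 1000 training UMIs and another rule for variable genes.

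Over the 10 tested clusters most of the genes varied together. Pearson's r between pairs of the 10 had a median of 0.731 in pool 1 (0.148 to 0.968) and 0.743 in pool 2 (0.0656 to 0.982), over clusters that share a library and include the low cluster 0. Aldoc was least like the rest, with a median r of 0.296 and 0.194, and Pgam1 was most alike, with 0.898 and 0.911. Across cells at 2000 UMIs the median r was only 0.124 over 3117 cells and 0.137 over 2874 cells, which in counts this sparse is no finding. The 5 other genes most like the mean of the enzymes over clusters, by the lower r of both pools, were the tetraspanin gene Cd63 (0.959), the calpain subunit gene Capns1 (0.918), the proteasome genes Psmd2 (0.899) and Psmd8 (0.899), and Bloc1s2 (0.897), out of 7057 genes of at least 20 CPM. Cd63 had 468 and 552 CPM in cluster 1, against 118 to 369 CPM and 139 to 366 CPM in the other tested clusters.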

How the data were processed

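Sorted glioma cells of 2 pools were analysed; per the labels, 4000 cells of each were loaded for 10x Genomics 3ʹ capture (version 3.1). The authors deposited raw UMI counts per gene and barcode; Cell Ranger 6.0.2 and the builds GRCm38 and mm10 are named in the submitters' processing notes, and for filters before deposit the sources used here give nothing. The enzyme genes and all lists were chosen with earlier results of these data known.

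UMIs were assigned by binomial draws (probability 0.5) to training counts, which set clusters and states, or to held-out counts, which were tested. Clusters came from 1000 variable genes (scanpy 1.11.5), without the enzymes and lists, with 30 components, 15 neighbours and Leiden resolution 0.8 (igraph 0.11.9, Python 3.11.15). For the tests, held-out UMIs were added up by pool and cluster (at least 20 cells in each pool; 20 libraries, 9 residual degrees of freedom, 11552 genes fitted) or by pool, cluster and state (at least 5 cells; 40 libraries and 19 residual degrees of freedom by HIF target state, 16 and 7 by cycling), and compared with edgeR 4.0.16 (quasi-likelihood, TMM, filterByExpr, R 4.3.3). Calls between clusters exclude the clustering genes. P-values were adjusted by Benjamini-Hochberg over all genes tested, with a threshold of 0.05. The script was tested on simulated data. Alternatives used DESeq2 1.42.0, limma 3.58.1, other filters, depths and clusters. No doublet caller was run; as an alternative, the 98 and 86 cells with the highest share of simulated doublets among their neighbours were removed (2.80% and 2.62%). Named genes were every enzyme, up to 4 genes of each list called in cluster 1 by largest absolute log2 fold change, and the 5 genes most like the enzymes over clusters. Promoters are from RefSeq and positions from GENCODE; all 10 genes matched. Intervals cover counting error only, since reads behind UMIs were not used here.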

Additional observations from a re-analysis of the deposited data

How the results depend on the processing

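All 10 enzyme genes differed between clusters under every alternative run. In cluster 1, or its counterpart where cells were clustered again, 10 were higher under every alternative but no replicate block and DESeq2, with 9. All genes called came to 4667 between clusters with cells thinned, and all genes higher in cluster 1 to 1302 with no replicate block, 1262 without cluster 0 and 826 thinned.

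The HIF target state gave 5 enzyme genes higher, but 0 with no replicate block (no cluster in it), 1 with DESeq2, 8 in a second split or thinned, 9 at 3 or more UMIs or with another variable-gene rule, 3 without cluster 1 and 3 to 4 with a pool left out. Of all genes, 20 were higher, against 43 with no filter, 1 with no block, 2 with DESeq2, 66 at 3 or more UMIs, 5 without cluster 1 and 7 to 13 with a pool left out. Aldoc, not called, turned to 0.0112 thinned.

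The cycling state gave 3 lower, but 1 with no block, limma-voom, 3 or more UMIs or thinning, 2 with DESeq2, 1000 training UMIs or another variable-gene rule, and 1 to 2 with a pool left out. All genes lower, 45, came to 97 with no filter, 8 with no block, 12 with DESeq2, 4 with limma-voom, 11 at 3 or more UMIs, 14 thinned, 16 with 1000 training UMIs, 22 with another variable-gene rule, 28 with another seed and 5 to 9 with a pool left out. Uncalled cycling differences near 0 changed sign: Tpi1 with no filter (-0.0563), in a second split (-0.0885), thinned (-0.145), with 1000 UMIs (-0.114), with another variable-gene rule (-0.155) and with a pool left out (-0.221 to 0.259); Eno1 thinned (0.0614); Pkm with another seed (0.0368); and Ldha with no block (0.0793), in a second split (0.0123) and with a pool left out (-0.159 to 0.072). The cause of these shifts was not tested. Limma-voom, the other variable-gene rule and seed, and the fits without cluster 1, cluster 0 or Vegfa were added after seeing the data. With 2 pools of mixed tumours, precision is limited by their number.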
